A study of Mus musculus with 15 samples.

Results

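The interferon-stimulated genes described here are 44 mouse genes taken by name from the known response to type I and type II interferon, and their rows were found in the count table by Ensembl identifier with the version dropped. All 44 had a row among the 54232 genes of the table, and 39 of the 44 had enough reads to be tested, of 18278 genes tested in all. Their values are given library by library, since 1 E1 library leads nearly all of them. RNA was sequenced from the striatum, the forebrain region most affected in Huntington's disease, of mice aged 6 months. There were 4 E1 mice, 4 KI-96 mice and 7 WT mice, with 1 library per mouse. The study's title concerns toxicity from repeat-associated non-AUG (RAN) translation in a knock-in mouse model of Huntington's disease. E1 and KI-96 stand as genotype names in the labels, with no account of the allele, the repeat or the promoter. No treatment or infection is named for any group.

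Type I interferons are cytokines that cells release when sensors in the cytosol or endosome meet viral or misplaced nucleic acid. They bind the receptor pair IFNAR1 and IFNAR2, whose kinases JAK1 and TYK2 phosphorylate STAT proteins. STAT2 and IRF9 are parts of the complex ISGF3, which binds the interferon-stimulated response element in promoters and switches on antiviral genes. Type II interferon signals through gamma-activated sites and is a strong inducer of guanylate-binding and immunity-related GTPases. In the brain microglia, astrocytes, endothelial cells and neurons can all respond.

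The binding sequence of this pathway was read in the promoters of the members. RefSeq windows on GRCm38.p6, from 250 bases before to 50 bases after the gene's start, were at hand for 35 of the 44 members. The core of the response element was searched as GAAANNGAAA on both strands. It was present in 18 of the 35 members, or in 47.5% of their 40 windows, against 3.44% of all 32851 mouse windows. A stricter form, GAAANNGAAACT, was in 13 of the 35 members and in 0.271% of all windows. The gamma-activated site, searched as TTCNNNGAA, was in 7 of the 35 members and 8.3% of all windows. A match is a description of the letters and not a measured binding site. The following 6 windows belong to members with small p-values in E1 against WT and carry the element, and they are shown so that its letters and position can be read beside the levels given later. They are printed on the strand of the gene, with the matched bases in capitals (TTTCNNTTTC is the element read on the other strand), and overlapping matches run together.

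Gbp3: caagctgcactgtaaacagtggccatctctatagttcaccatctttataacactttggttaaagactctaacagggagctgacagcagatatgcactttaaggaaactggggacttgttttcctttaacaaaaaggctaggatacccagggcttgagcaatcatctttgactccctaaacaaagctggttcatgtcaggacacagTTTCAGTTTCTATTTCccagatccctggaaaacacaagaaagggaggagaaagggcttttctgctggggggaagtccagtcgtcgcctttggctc

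Bst2: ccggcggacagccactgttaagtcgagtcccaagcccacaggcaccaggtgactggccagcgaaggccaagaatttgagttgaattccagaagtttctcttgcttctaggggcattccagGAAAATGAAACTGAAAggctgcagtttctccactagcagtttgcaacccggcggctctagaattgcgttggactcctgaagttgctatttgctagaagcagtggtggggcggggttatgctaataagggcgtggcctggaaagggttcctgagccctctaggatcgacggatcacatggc

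Ifit3: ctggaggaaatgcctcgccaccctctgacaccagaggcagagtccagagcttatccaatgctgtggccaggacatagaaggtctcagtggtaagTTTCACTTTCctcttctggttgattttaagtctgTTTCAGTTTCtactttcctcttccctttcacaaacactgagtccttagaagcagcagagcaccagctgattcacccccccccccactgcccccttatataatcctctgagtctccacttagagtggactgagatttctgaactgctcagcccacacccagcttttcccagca

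Isg15: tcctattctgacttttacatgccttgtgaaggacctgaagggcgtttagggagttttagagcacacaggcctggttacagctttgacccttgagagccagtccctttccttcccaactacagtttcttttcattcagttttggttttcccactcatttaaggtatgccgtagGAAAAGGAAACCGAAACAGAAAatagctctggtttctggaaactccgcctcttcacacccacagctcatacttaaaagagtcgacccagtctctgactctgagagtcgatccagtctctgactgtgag

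Gbp2: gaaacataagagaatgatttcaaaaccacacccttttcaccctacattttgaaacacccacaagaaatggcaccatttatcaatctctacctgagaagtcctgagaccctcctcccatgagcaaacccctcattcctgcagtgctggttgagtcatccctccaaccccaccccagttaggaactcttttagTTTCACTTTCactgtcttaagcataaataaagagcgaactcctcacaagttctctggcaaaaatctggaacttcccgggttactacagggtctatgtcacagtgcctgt

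Oas1a: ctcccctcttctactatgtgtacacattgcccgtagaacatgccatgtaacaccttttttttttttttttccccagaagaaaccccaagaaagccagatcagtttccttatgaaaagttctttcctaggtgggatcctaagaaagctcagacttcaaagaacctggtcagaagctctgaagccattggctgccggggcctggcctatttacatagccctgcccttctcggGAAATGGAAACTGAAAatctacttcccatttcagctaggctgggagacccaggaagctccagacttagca

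The Gbp3 window lies at chr3:142559794-142560093, plus strand, and its 2 overlapping matches start 45 and 39 bases before the gene's start. The Bst2 window lies at chr8:71537423-71537722, minus strand, with 2 overlapping matches at 130 and 124 bases before the start. The Ifit3 window lies at chr19:34583279-34583578, plus strand, and its 2 matches, at 156 and 122 bases before the start, stand apart. The Isg15 window lies at chr4:156200769-156201068, minus strand, with 3 overlapping matches at 78, 72 and 66 bases before the start. The Gbp2 window lies at chr3:142620413-142620712, plus strand, with 1 match at 59 bases. The Oas1a window lies at chr5:120907476-120907775, minus strand, with 2 overlapping matches at 20 and 14 bases. Irf7, Oasl2, Dtx3l and Lgals3bp had no match in their windows. Iigp1, Rtp4 and Usp18 had no window in the table.

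Total counts per library were 18199927 to 19533231 in E1, 14678565 to 23373551 in KI-96 and 17281603 to 26388542 in WT. The spiny neuron markers Drd1 and Drd2 were present in all 15 libraries, between 162 and 360 CPM (counts scaled by the normalized library total). Some libraries stood apart. Over all genes tested, KI-96 replicate 3 was the highest of the 15 libraries for 19.6%, against at most 8.93% in any other. In that library 25.6% of all genes tested were above all WT libraries and 29.8% below. Markers of cortical excitatory neurons summed to 2069 CPM in E1 replicate 2, 1416 CPM in E1 replicate 3 and 1875 CPM in WT replicate 3, against 342 to 540 CPM in the other 12 libraries. Y-linked genes summed to at most 0.132 CPM in all E1 and KI-96 libraries and in WT replicate 1, against 158 to 205 CPM in WT replicates 2 to 7. Apart from that library, the presence of Y-linked reads and the genotype cannot be told apart, and WT replicate 1 is the only WT library without Y-linked reads. For the interferon-stimulated genes the libraries that stood apart were E1 replicate 1 and, less so, KI-96 replicate 4, and the counts, the medians and the fold changes of named members are also given without the library that leads the comparison.

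E1 replicate 1 had the highest level of all 15 libraries for 42 of the 44 members. The exceptions were Sp100, highest in E1 replicate 2 at 4.10 CPM, and Xaf1, highest in WT replicate 7 at 16.5 CPM. Among the 39 tested members 37 were highest in this library (94.9%), against 8.93% of all genes tested. Summed over the 44 members, the level was 650, 241, 192 and 216 CPM in E1 replicates 1 to 4, 189, 187, 224 and 307 CPM in KI-96 replicates 1 to 4, and 178 to 202 CPM in the 7 WT libraries. The median log2 ratio of the tested members to the WT mean was 2.08, 0.50, 0.02 and 0.23 in E1 replicates 1 to 4. It was -0.06, 0.02, 0.50 and 0.91 in KI-96 replicates 1 to 4, and -0.20 to 0.10 in WT libraries, with WT replicate 1 at 0.08. E1 replicate 1 was thus far above every other library, and KI-96 replicate 4 came next.

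**Figure D1:**
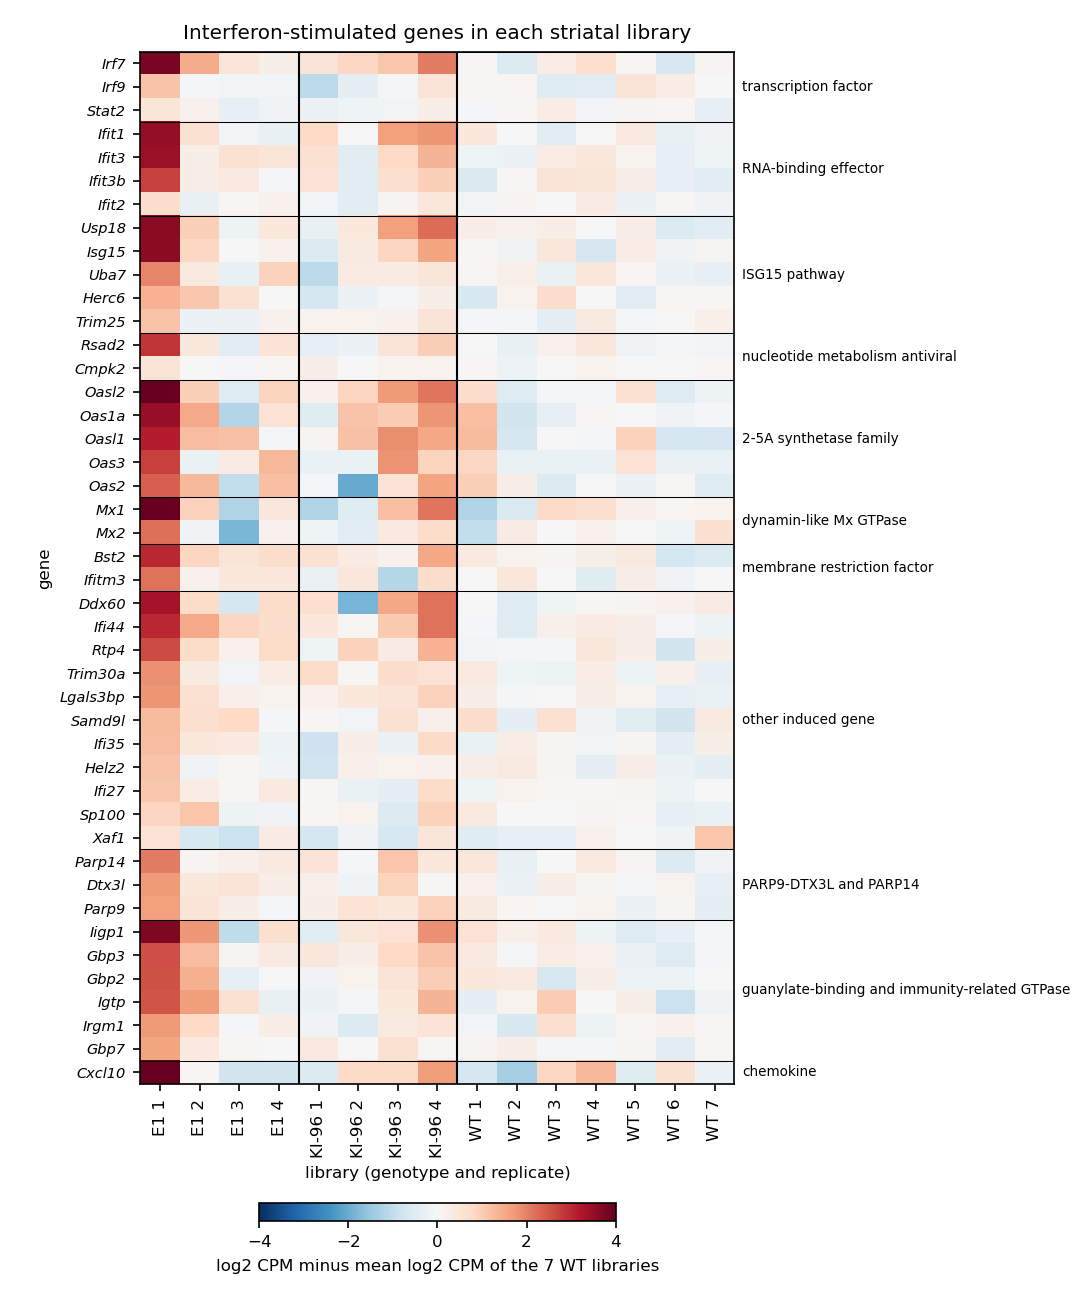
Level of the 44 members (rows, grouped by role) in each of the 15 libraries (columns), as log2 CPM minus the mean log2 CPM of the 7 WT libraries. Red is above the WT mean, blue below, and values above 4 take the darkest red. The column of E1 replicate 1 is red for all members, with a median of 2.08 over the tested ones, and KI-96 replicate 4 is the next reddest with 0.91.

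How E1 mice differ from WT mice was the first comparison. No member passed the test, and 1 of 18278 genes was called higher (0.00547%) and 0 lower. At an unadjusted p under 0.05, 29 of the 39 tested members were higher in E1 (74.4%), against 3.69% of all genes, and 0 were lower, against 5.06%. DESeq2 called 3 members, Irf7, Gbp3 and Iigp1, with adjusted p of 0.0205, 0.0398 and 0.0495, and 0.148% of all genes higher. Without E1 replicate 4, edgeR called 5, Irf7, Ifi44, Gbp3, Bst2 and Igtp. Of these, Ifi44 had too few reads to be tested with all libraries and was at most 0.26 CPM in WT. It entered the fit without E1 replicate 4 through libraries where it is high, such as E1 replicate 1 at 2.25 CPM. Its call is therefore not separate support. In that fit 46 of 18676 genes were called higher (0.246%) and 211 lower, where 1 and 0 were called with all libraries. The log2 fold change was above 0 for 38 of 39 members (49.7% of all genes), with a median of 0.94. Without E1 replicate 1 the median was 0.33, 31 of 39 were above 0 (49% of all genes), and 4 of 39 had an unadjusted p under 0.05 (2.9% of all genes), with 0 members called and a smallest adjusted p of 0.795. In bulk tissue a higher level may reflect more RNA per cell or more cells that make it, and these cannot be told apart.

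Among the transcription factors, Irf7, the factor that amplifies type I interferon production, had 12.9, 2.53, 1.22 and 0.997 CPM in E1, 1.237, 1.58, 1.91 and 3.75 CPM in KI-96 and 0.499 to 1.41 CPM in WT (median 0.868). E1 replicate 1 was above all others, E1 replicate 2 was above all WT libraries, and E1 replicates 3 and 4 lay within the WT range. The log2 fold change of Irf7 in E1 against WT was 2.33 (SE 0.57, adjusted p = 0.395), and 0.85 (SE 0.39, adjusted p = 0.795) without E1 replicate 1. The other 2 factors of this group are the ISGF3 parts Stat2 and Irf9, which are already well expressed in WT striatum. Stat2 had 36.4, 29.0, 20.7 and 23.6 CPM in E1 and 20.3 to 31.5 CPM in WT (median 26.6), and the log2 fold change was 0.08 (SE 0.14), and -0.09 (SE 0.14) without E1 replicate 1. Irf9 had 27.1, 12.0, 11.4 and 11.3 CPM in E1 and 8.76 to 17.5 CPM in WT (median 12.9), so that only E1 replicate 1 left the WT range.

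The Ifit genes encode tetratricopeptide proteins that bind foreign RNA and lie together on chromosome 19 (GRCm38). Ifit3 had 56.3, 6.07, 7.93 and 7.30 CPM in E1 and 4.13 to 7.03 CPM in WT (median 4.63). E1 replicate 1 was over all other libraries, E1 replicates 3 and 4 were just above the WT range and E1 replicate 2 lay within it. The log2 fold change was 1.88 (SE 0.53, adjusted p = 0.448), and 0.43 (SE 0.27) without E1 replicate 1. Ifit1 was 11.9 times the WT mean in E1 replicate 1 and Ifit3b 6.58 times, whereas their neighbour Ifit2 was 1.60 times, with 15.5 CPM in that library, 7.75 to 10.9 CPM in the other E1 libraries and 8.16 to 12.1 CPM in WT. Ifit3 and Ifit3b are close copies, and no source used here says how reads were split between them.

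ISG15 is a ubiquitin-like protein that is joined to other proteins, with UBA7 as its activating enzyme, HERC6 as a ligase in mouse and USP18 as the protease that removes it and damps the receptor. Isg15 had 16.8, 2.42, 1.33 and 1.47 CPM in E1 and 0.781 to 1.82 CPM in WT (median 1.39), and its log2 fold change was 2.03 (SE 0.58, adjusted p = 0.448), and 0.37 (SE 0.37) without E1 replicate 1. Usp18 had 7.99, 1.18, 0.479 and 0.787 CPM in E1 and 0.356 to 0.705 CPM in WT (median 0.646), at a log2 fold change of 2.18 (adjusted p = 0.448, SE 0.63), and 0.50 (SE 0.49) without E1 replicate 1. For both genes E1 replicates 1 and 2 were above all WT libraries and E1 replicate 3 was not, while E1 replicate 4 was above them for Usp18 alone. Herc6 was less tied to 1 library, with 9.38, 7.53, 5.37 and 3.52 CPM in E1 and 2.26 to 5.70 CPM in WT (median 3.67). Its log2 fold change was 0.60 (SE 0.28, adjusted p = 0.795) without E1 replicate 1. Uba7 had 10.5, 3.54, 2.13 and 5.09 CPM in E1 and 2.11 to 3.65 CPM in WT. Trim25, a ubiquitin ligase of RIG-I signalling, had 16.9 CPM in E1 replicate 1, 6.40 to 8.56 CPM in the other E1 libraries and 5.82 to 9.79 CPM in WT.

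**Figure D2:**
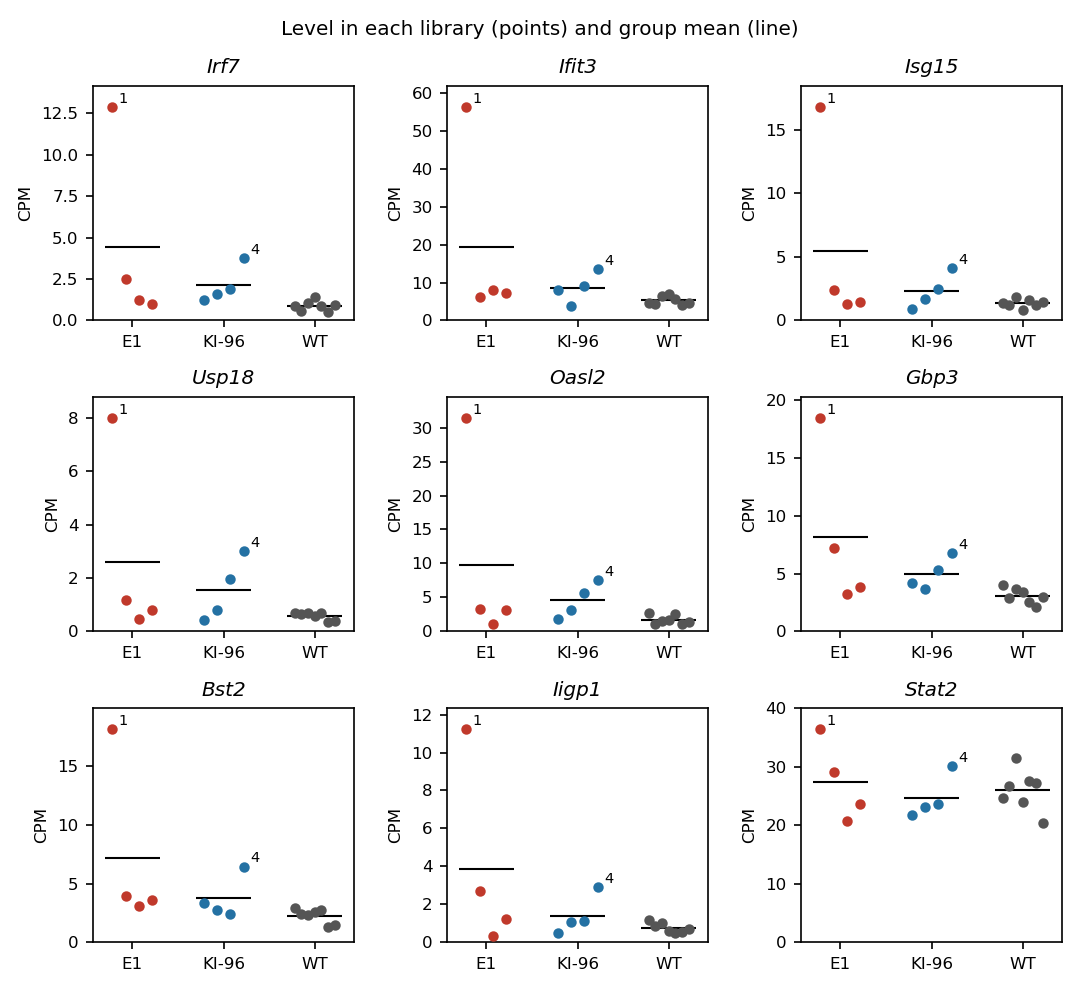
Level of 9 members in CPM in E1, KI-96 and WT libraries (1 point per library, the line is the group mean, linear axes from 0). The points marked 1 and 4 are E1 replicate 1 and KI-96 replicate 4; Irf7 stands at 12.9 CPM in E1 replicate 1, against at most 3.75 CPM in any other library, while Stat2 at 36.4 CPM is close to its WT maximum of 31.5 CPM.

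The 2-5A synthetase family makes the short oligoadenylates that activate RNase L, and the Oasl members are related proteins. Oasl2 had 31.4, 3.31, 1.12 and 3.15 CPM in E1 and 1.13 to 2.78 CPM in WT (median 1.59), and its log2 fold change was 2.48 (SE 0.69, adjusted p = 0.448), and 0.53 (SE 0.42) without E1 replicate 1. Oas1a had 3.74, 0.899, 0.0532 and 0.42 CPM in E1 and 0.108 to 0.695 CPM in WT. Oas2 had 2.05, 0.899, 0.106 and 0.84 CPM in E1 and 0.176 to 0.695 CPM in WT. In all of these E1 replicate 3 was the lowest E1 library, under the lowest WT value. Oasl1 and Oas3 had too few reads to be tested, with 26 and 14 counts in E1 replicate 1.

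Mx1, a dynamin-like GTPase that blocks viral ribonucleoproteins, was also below the filter. It had 7.07 CPM in E1 replicate 1, from 138 counts, which is 46.3 times the WT mean, at most 0.337 CPM in the other E1 libraries and at most 0.294 CPM in WT. Mx2, its paralogue, had 4.97, 0.899, 0.213 and 1.15 CPM in E1 and 0.463 to 1.61 CPM in WT. Cxcl10, the chemokine that draws activated T cells, had 5.84 CPM in E1 replicate 1 (114 counts), at most 0.168 CPM in the other E1 libraries and at most 0.521 CPM in WT. Apart from Mx1 in E1 replicate 2, none of these 3 genes was above the WT range in E1 replicates 2 to 4.

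Bst2 encodes tetherin, which holds budding virions at the cell surface, and is 1 of the 2 tested members whose E1 and WT levels did not overlap. It had 18.1, 3.99, 3.14 and 3.62 CPM in E1 and 1.28 to 2.89 CPM in WT (median 2.42). Its log2 fold change was 1.69 (SE 0.43, adjusted p = 0.421), and 0.68 (SE 0.30, adjusted p = 0.795) without E1 replicate 1. The other was Dtx3l, a ubiquitin ligase that works with PARP9, with 9.84, 3.99, 4.26 and 3.57 CPM in E1 and 2.34 to 3.47 CPM in WT (median 3.18), and a log2 fold change of 0.86 (adjusted p = 0.448, SE 0.26), or 0.40 (SE 0.22) without E1 replicate 1. All 4 E1 libraries were above all 7 WT libraries for these 2 of 39 members, against 0.892% of all genes, and without E1 replicate 1 the count was again 2, against 1.34%. Parp9 shares 458 exon bases with Dtx3l on the opposite strand, and whether counting used strand is not given. Ifitm3, which blocks virus entry at endosomes, had 27.0, 6.68, 7.93 and 8.03 CPM in E1 and 4.17 to 8.24 CPM in WT, so only E1 replicate 1 stood out.

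The interferon-induced GTPases attack the vacuoles of intracellular pathogens. Gbp3 had 18.4, 7.25, 3.24 and 3.88 CPM in E1 and 2.10 to 3.99 CPM in WT (median 2.95), at a log2 fold change of 1.42 (adjusted p = 0.416, SE 0.36), and 0.64 (SE 0.26, adjusted p = 0.795) without E1 replicate 1. Gbp2 had 12.6, 5.73, 1.65 and 2.05 CPM in E1 and 1.29 to 2.84 CPM in WT (median 2.07), and its log2 fold change was 1.35 (SE 0.42, adjusted p = 0.448), and 0.54 (SE 0.35) without E1 replicate 1. Iigp1 had 11.2, 2.70, 0.319 and 1.21 CPM in E1 and 0.492 to 1.16 CPM in WT (median 0.690), and its log2 fold change was 2.34 (SE 0.64, adjusted p = 0.448), and 0.88 (SE 0.52) without E1 replicate 1. In this group E1 replicate 2 was the second highest E1 library and above all WT libraries for Gbp2, Gbp3, Iigp1, Igtp and Irgm1. Igtp had 9.94 and 5.50 CPM in E1 replicates 1 and 2 and at most 3.41 CPM in WT, and Irgm1 had 13.6 and 7.25 CPM, against at most 6.47 CPM in WT. Over all 44 members E1 replicate 2 was the highest of E1 replicates 2 to 4 for 27, against 31.7% of all genes. This is also the library with the highest sum of cortical markers. The 7 blood markers also summed highest in it, at 513 CPM against at most 304 CPM in any other library and 216 CPM in WT. So did the 7 B cell markers, at 37.5 CPM against at most 33.4 CPM, in WT replicate 3. Most of these B cell sums was the single gene Ighm, at 35.7 CPM in E1 replicate 2 and 30.7 CPM in WT replicate 3. All 5 tested blood markers had a log2 fold change above 0 in E1 against WT, with a median of 0.85, and 0.96 without E1 replicate 1, which itself had 186 CPM of blood markers. The part of these tissues and cells in the member values was not tested.

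Rsad2 and Cmpk2 are neighbours on chromosome 12; viperin, the product of Rsad2, makes a chain-terminating nucleotide from the product of CMPK2. Rsad2 had 10.8, 1.91, 1.01 and 2.10 CPM in E1 and 1.13 to 1.98 CPM in WT, whereas Cmpk2 had 35.3, 24.7, 23.1 and 25.7 CPM in E1 and 21.5 to 27.2 CPM in WT. E1 replicate 1 was 7.55 times the WT mean for Rsad2 and 1.44 times for Cmpk2. Of the other induced genes, Rtp4, a chaperone of membrane receptors, had 7.02, 1.85, 1.22 and 1.84 CPM in E1 and 0.606 to 1.51 CPM in WT (median 1.02), at a log2 fold change of 1.44 (adjusted p = 0.448, SE 0.41), and 0.57 (SE 0.34) without E1 replicate 1. Lgals3bp, a secreted galectin-binding glycoprotein, had 36.1, 16.1, 12.1 and 11.6 CPM in E1 and 8.30 to 12.5 CPM in WT (median 10.6), at a log2 fold change of 0.85 (adjusted p = 0.448, SE 0.25) and 0.33 (SE 0.17, adjusted p = 0.798) without E1 replicate 1. Ifi44, which had too few reads to be tested when all libraries entered the fit, had 2.25, 0.73, 0.426 and 0.367 CPM in E1 and 0.108 to 0.26 CPM in WT, with no overlap. Xaf1, a proapoptotic factor, was the only tested member with a log2 fold change under 0, at -0.13 (SE 0.34), and -0.40 (SE 0.37) without E1 replicate 1. Ddx60, an RNA helicase, had 8.35, 1.29, 0.426 and 1.31 CPM in E1 and 0.484 to 0.958 CPM in WT. The rest, Parp14, Trim30a, Parp9, Gbp7, Ifi35, Samd9l, Helz2, Ifi27 and Sp100, were 1.82 to 4.22 times the WT mean in E1 replicate 1.

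Per kilobase of exon, the members with the highest WT levels were Ifi27 (15.0 ± 1.39 CPM per kb), Ifitm3 (8.91 ± 1.91), Cmpk2 (5.90 ± 0.408), Stat2 (4.38 ± 0.587) and Lgals3bp (3.71 ± 0.598; SD, n = 7 each). In E1 replicate 1 these members stood at 2.13 times the WT mean for Ifi27, 4.47 times for Ifitm3, 1.44 times for Cmpk2, 1.40 times for Stat2 and 3.42 times for Lgals3bp. The lowest tested members in WT were Oas2 (0.0744 ± 0.0395 CPM per kb), Ddx60 (0.0872 ± 0.0177), Iigp1 (0.132 ± 0.0418), Oas1a (0.146 ± 0.102) and Usp18 (0.208 ± 0.0539). In E1 replicate 1 these low members stood at 6.19 times the WT mean for Oas2, 11.0 times for Ddx60, 14.6 times for Iigp1, 13.6 times for Oas1a and 13.8 times for Usp18. Oas2 and Oas1a had WT medians of only 0.313 and 0.230 CPM. Members this low in WT pass the filter on reads through libraries where they are high. A high ratio in Oas2 and Oas1a is therefore partly set by the filter.

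The ratio of E1 replicate 1 to the WT mean was also set beside the promoter letters. It had a median of 7.06 over the 18 members with the response element (1.40 to 28.9) and of 2.46 over the 17 without it (1.39 to 17.9). These include members with too few reads to be tested, Cxcl10 and Oas3 with the element and Oasl1 and Ifi44 without it. Cxcl10 and Oas3 had the highest ratios, 28.9 and 25.4, and Oas3 had 4 reads in all over the 7 WT libraries. The ranges overlap: Stat2 carries the element at 1.40 times, and Oasl2, Oasl1, Irf7 and Ifi44 carry none at 11.7 to 17.9 times.

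**Figure D3:**
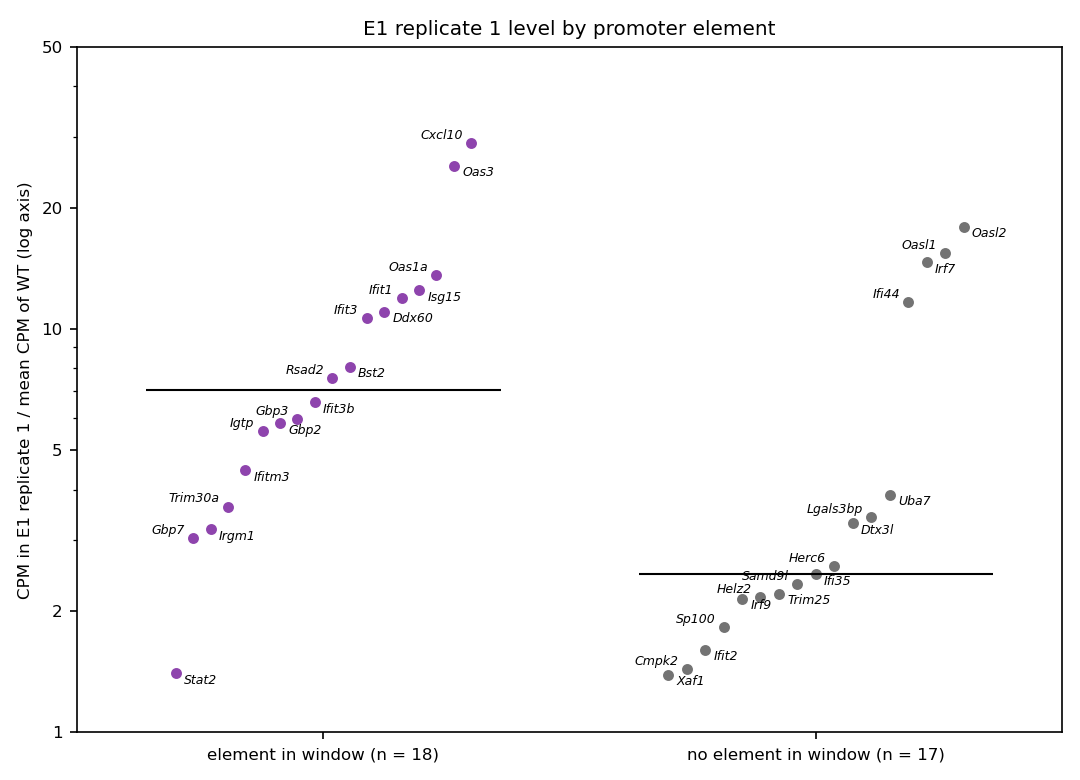
Ratio of CPM in E1 replicate 1 to the WT mean (log axis), for the 18 members with and the 17 members without a response element in the RefSeq window; each point is a gene and the line is the median (7.06 with, 2.46 without). The 2 sets overlap over most of their range. Cxcl10, Oas3, Oasl1 and Ifi44 are shown although they had too few reads to be tested.

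KI-96 mice were compared with WT mice in the same way. No gene of the 18278 passed the test (0% in each direction), so no member did. At an unadjusted p under 0.05, 2 of 39 members were higher, which is 5.13%, against 5.8% of all genes, and 0 were lower, against 4.68%. The log2 fold change was above 0 for 34 of 39 members (47.9% of all genes), with a median of 0.42. Without KI-96 replicate 4 the median was 0.16, 24 of 39 were above 0 (46.5%) and 0 had such a p (9.22% of all genes higher). In the fit without E1 replicate 1, a library of neither group, 14 of 39 had it, against 5.6% of all genes.

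The members that led this comparison were Usp18 and Irf7. Usp18 had 0.437, 0.79, 1.97 and 3.00 CPM in KI-96 and 0.356 to 0.705 CPM in WT, at a log2 fold change of 1.47 (adjusted p = 0.447, SE 0.65), and 0.92 (SE 0.73) without KI-96 replicate 4. Its KI-96 replicate 1 lay within the WT range and the other 3 above it. Irf7 differed by a log2 fold change of 1.30 (adjusted p = 0.455, SE 0.59), and 0.85 (SE 0.65) without KI-96 replicate 4, with KI-96 replicate 1 at 1.237 CPM within the WT range and the other 3 libraries above it. Parp9, a mono-ADP-ribosyltransferase of the DTX3L complex, had 2.55, 3.23, 2.89 and 4.21 CPM in KI-96 and 1.61 to 2.78 CPM in WT, and its log2 fold change was 0.57 (SE 0.28, adjusted p = 0.485), and 0.41 (SE 0.31) without KI-96 replicate 4. Lgals3bp had 11.9, 13.9, 14.9 and 19.7 CPM in KI-96, at a log2 fold change of 0.52 (adjusted p = 0.487, SE 0.26), and 0.36 (SE 0.28) without KI-96 replicate 4. Ifit1 had 2.55, 1.45, 4.75 and 5.12 CPM in KI-96 and 1.06 to 1.97 CPM in WT, and its log2 fold change was 1.25 (SE 0.62, adjusted p = 0.499), and 0.99 (SE 0.71) without KI-96 replicate 4. In these genes KI-96 replicate 4 was the highest of its group, and KI-96 replicate 1 or 2 the lowest.

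KI-96 replicate 4 was the second highest of 15 libraries for 27 of 44 members, against 6.99% of all genes, and the highest KI-96 library for 35 of 44, against 28.7%. Among the 39 tested, 29 were above all WT libraries in KI-96 replicate 4, 17 in replicate 3, 10 in replicate 1 and 6 in replicate 2, against 15.5%, 25.6%, 19.2% and 16.8% of all genes.

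**Figure D4:**
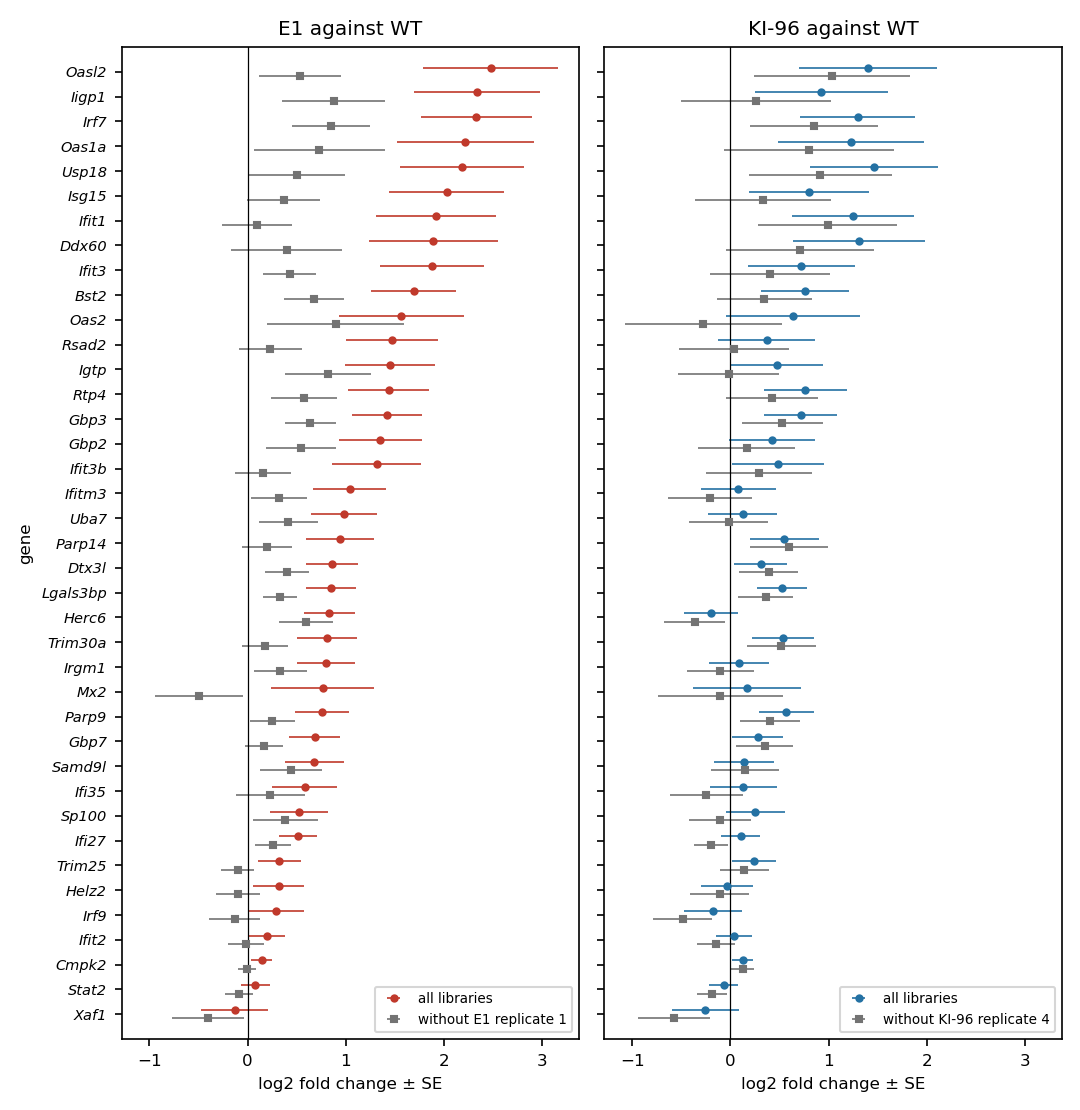
Log2 fold change ± SE of the 39 tested members in E1 against WT (left, with all libraries and without E1 replicate 1) and in KI-96 against WT (right, with all libraries and without KI-96 replicate 4), in order of the first. The grey points sit closer to 0 for most members, with medians of 0.33 on the left and 0.16 on the right, against 0.94 and 0.42 with all libraries.

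KI-96 mice were last set against E1 mice. No gene passed (0% in each direction). All 39 members had a log2 fold change under 0 (49.4% of all genes were above 0), with a median of -0.67, and 3 had an unadjusted p under 0.05, against 6.42% of all genes lower and 7.84% higher. Without E1 replicate 1 the median was 0.11 and 26 of 39 members were above 0 (50% of all genes). Without KI-96 replicate 4 it was -0.91, with 13 members at such a p, against 10.2% of all genes.

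Herc6 had 2.11, 2.96, 3.33 and 4.12 CPM in KI-96 and 9.38, 7.53, 5.37 and 3.52 CPM in E1, and its log2 fold change was -1.03 (SE 0.31, adjusted p = 0.212), and -0.79 (SE 0.31) without E1 replicate 1. The groups overlapped in KI-96 replicate 4 and E1 replicate 4, while E1 replicates 1 to 3 were above all KI-96 libraries. Ifitm3 had 4.95, 8.23, 2.62 and 9.66 CPM in KI-96, and its log2 fold change was -0.96 (SE 0.43, adjusted p = 0.325), and -0.24 (SE 0.32) without E1 replicate 1. Uba7 had 1.237, 3.36, 3.33 and 3.71 CPM in KI-96, at a log2 fold change of -0.85 (adjusted p = 0.334, SE 0.39), and -0.29 (SE 0.34) without E1 replicate 1. Irgm1 had 3.71, 2.83, 5.35 and 6.16 CPM in KI-96, at a log2 fold change of -0.71 (adjusted p = 0.358, SE 0.34), and -0.24 (SE 0.30) without E1 replicate 1. Rsad2 had 1.09, 1.18, 2.07 and 2.87 CPM in KI-96, at a log2 fold change of -1.10 (adjusted p = 0.370, SE 0.55), and 0.13 (SE 0.36) without E1 replicate 1.

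The genes that stand before the members in the pathway were read from separate lists, here in E1 against WT. No gene of any list passed, in this comparison or in those with KI-96. The 21 interferon ligands had at most 3 reads in total in any E1 library, at most 1 in any KI-96 library and at most 8 in any WT library, and Ifnb1 had 0 in all 15. For the receptors 3 of 6 had a log2 fold change above 0, with a median of 0.02; Ifnar1, a type I receptor chain, had 41.3 ± 1.87 CPM in E1 (SD, n = 4) and 42.0 ± 1.63 CPM in WT (n = 7). Ifnar2 differed by a log2 fold change of 0.05 (SE 0.15) and Ifngr2, of the type II receptor, of 0.11 (SE 0.14). For JAK-STAT signalling 8 of 12 were above 0, with a median of 0.03. Socs1, the feedback inhibitor of JAK kinases, differed by a log2 fold change of 0.97 (adjusted p = 0.530, SE 0.40), or 0.66 without E1 replicate 1, and Ptpn1, a phosphatase, of 0.15 (SE 0.08).

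The list of interferon regulatory factors outside the members also holds the IRF2-binding proteins Irf2bp1, Irf2bp2 and Irf2bpl, which are not such factors themselves. Of its 9 tested genes, 8 were above 0 with a median of 0.12, among them Irf2 (0.31, SE 0.11) and Irf2bpl (0.23, SE 0.10). The nucleic acid sensors and adaptors had 7 of 16 above 0 and a median of -0.01. The RNA sensors Ifih1 and Ddx58 and the Z-nucleic-acid sensor Zbp1 stood at 10.0, 13.7 and 2.25 CPM in E1 replicate 1, against at most 4.37, 6.39 and 0.928 CPM in the other 14 libraries. Their log2 fold changes were 0.81 (SE 0.27), 0.81 (SE 0.30) and 0.85 (SE 0.42), and 0.29, 0.15 and 0.01 without E1 replicate 1. Of 55 other interferon-induced genes, 44 were tested, 37 were above 0 (49.7% of all genes), the median was 0.57, and 15 were higher at an unadjusted p under 0.05 (3.69% of all genes). Without E1 replicate 1 the median was 0.13 and 5 were higher at such a p (2.9% of all genes). Tgtp2, an immunity-related GTPase, differed by a log2 fold change of 2.14 (adjusted p = 0.383, SE 0.49) and 1.80 without that library. Ube2l6, the ISG15 conjugating enzyme, had 1.04 (SE 0.24, adjusted p = 0.383) and 1.01 without it, and Irgm2 had 1.25 (SE 0.31, adjusted p = 0.393) and 0.77. Tgtp2 and Ube2l6 stood at 2.72 and 4.87 CPM in E1 replicate 1, against up to 2.75 and 7.36 CPM in the other 14 libraries. Leaving out E1 replicate 1 thus keeps the highest library of these genes in the fit. Irgm2 was highest in E1 replicate 1, at 11.4 CPM against at most 6.07 CPM.

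Which genes set E1 replicate 1 apart was then read over all genes with a mean of at least 1 CPM. The ratio of this library to the highest of the other 14, with 0.5 CPM added to both, was over 2 for 20 of 15495 genes. Of these, 17 were members, 2 were on the other interferon lists and 1 was outside them. All 8 genes with a ratio over 3 were members. In KI-96 replicate 3, by contrast, 54 genes had such a ratio over 2 and 0 of them were members. Outside the lists, Nlrc5, the activator of MHC class I genes, had the largest ratio, 2.67, followed by the lincRNA Gm42047 at 1.87, Cd274 (PD-L1) at 1.72, Slfn9 at 1.71 and the complement gene C3 at 1.68. Fam184b was at 1.64, the complement gene C4b at 1.57, Gm20559 and Gm33651 at 1.56 and Tbx1 at 1.55.

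Cell type markers were read beside these values. The 13 microglia markers summed to 530 CPM in E1 replicate 1, 443 to 559 CPM in the other E1 libraries, 376 to 620 CPM in KI-96 and 456 to 607 CPM in WT. The 12 microglial activation markers summed to 1925 CPM in E1 replicate 1 and 1713 to 2100 CPM in WT, so that the sum lay within the WT range, but 1779 CPM of it was Apoe. Of the 12 activation markers, 3 were highest of all 15 libraries in E1 replicate 1. These were Cd68, Clec7a and Itgax, at 17.8, 1.69 and 1.18 CPM, against at most 15.0, 0.95 and 1.08 CPM elsewhere. Spp1 and Axl went the other way, at 2.41 and 45.7 CPM in E1 replicate 1, against at least 4.06 and 47.6 CPM in WT. The 14 T and NK cell markers summed to 112 CPM in E1 replicate 1, the highest of all libraries, against 56.6 to 92.3 CPM in WT. Of that sum 108 CPM was Cd4, while the 3 Cd3 genes held 4 reads there and 0 to 5 in any other library. Without Cd4 the sum was 4.05 CPM in E1 replicate 1 and 3.75 CPM in KI-96 replicate 4, the highest of the 15 libraries, against 1.08 to 3.60 CPM in WT. In E1 replicate 1, 5 of the 14 markers were at their highest and 1 had no reads, against 3 to 10 without reads in the other libraries. The 10 spiny neuron markers summed highest in E1 replicate 1, at 10821 CPM against 6065 to 10146 CPM elsewhere. Of these markers, 8 were each highest there. The 10 astrocyte markers summed lowest, at 3941 CPM against 4159 to 5012 CPM, but 2206 CPM of that sum was Slc1a2. Their mean log2 CPM, 7.26, was not the lowest, with 7.10 in E1 replicate 2, 7.15 in KI-96 replicate 3 and 7.17 in WT replicate 3. Sox9 was even highest in E1 replicate 1, at 52.1 CPM. The part of these differences in the member levels was not tested.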

How the data were processed

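Read counts by gene were deposited by the authors for 15 striatal libraries, as whole numbers with a different total in each column, and were taken as unnormalized. STAR, HTSeq, DESeq2 1.24.0 and GRCm38 appear in the submitters' processing notes, without role or order. No source used here gives the counting annotation, strandedness or read length. Identifiers were matched to GENCODE on GRCm38 (54165 of 54232 without version).

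Genes were filtered with edgeR 4.0.16 (filterByExpr, minimum count 10), scaled by TMM and tested with its quasi-likelihood test, two-sided, with group as the factor over all 15 libraries. P-values were adjusted by Benjamini-Hochberg over all genes tested, with a threshold of 0.05, and adjusted p-values in the text are those of this edgeR fit where no other tool is given. CPM used TMM library sizes, and log2 CPM a prior count of 2. The procedure was tested on simulated data with known changes. These data had the same spread for every gene and no library set apart. They therefore do not show how the test behaves where E1 replicate 1 leads a group. DESeq2 1.42.0 and limma 3.58.1 (voom) were alternatives, as were other scaling, no filter, covariates and leaving out libraries. The 33 within-group pairs of libraries all differed by more than sampling noise (smallest chi-square per degree of freedom 7.78), and each library has its own mouse number.

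The members and gene lists were chosen with earlier results of these data known. Members named with a fold change were the 12 with the smallest p in E1 against WT, the 5 with the smallest p in each other comparison and without E1 replicate 1; Stat2 and Xaf1 were added after their values were seen, and other members are described by their levels to account for each role. From each pathway list the 3 with the smallest p were named, apart from genes not reported here, and 10 genes outside the lists by their ratio in E1 replicate 1. For levels per kilobase, the 5 highest and 5 lowest tested members in WT were named. Up to 6 promoters outside chromosome 18 were printed by smallest p.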

Additional observations from a re-analysis of the deposited data

Results flagged for a closer look

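Within each group the gap between the highest or lowest library and its neighbour, as a share of the group's range of log2 CPM, was compared with Dixon's limit for the 44 members in 3 genotypes, or 132 groups. By chance a single group passes in about 1 in 20, but the members share the same 15 libraries, so the 132 groups are not independent. E1 replicate 1 was also known beforehand to lead the members, so the flags are a description only. The limit was passed in 13 groups. In 8 of them E1 replicate 1 was the high library: Irf9 (0.939), Parp14 (0.883), Ifit3 (0.881), Ifitm3 (0.869), Bst2 (0.865), Cxcl10 (0.846), Helz2 (0.838) and Ifit3b (0.837). KI-96 replicate 4 was high for Trim25 (0.882). KI-96 replicate 1 was low for Helz2 (0.91) and Uba7 (0.901). WT replicate 1 was high for Oas1a (0.589), at 0.695 CPM, and WT replicate 7 for Xaf1 (0.589), at 16.5 CPM.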

How the results depend on the processing

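For E1 against WT, 0 members were called in most settings, 3 with DESeq2, and 0 to 5 when each library was left out in turn. The 5 came without E1 replicate 4 and were Irf7, Ifi44, Gbp3, Bst2 and Igtp. Ifi44 was not tested with all libraries and passed the filter there through libraries where it is high. The count of members at an unadjusted p under 0.05, 29 with all libraries, was 18 with limma-voom (3.53% of all genes higher). It was 1 with the mean log2 CPM of the Y-linked genes as a covariate (1.23%). It was 5 without both E1 replicate 1 and KI-96 replicate 4 (2.99%), a setting chosen after seeing the data. Only WT replicate 1 separates the Y-linked covariate from genotype, so a low count with it, here or for KI-96, is largely built in. The median log2 fold change, 0.94, was 1.17 with no filter, 1.51 without the 3 libraries high in cortical markers and 0.33 without both libraries. For KI-96 against WT the 2 members higher at that p became 5 with DESeq2 (6.44% of all genes), 16 with only the 2 groups (5.08%), 4 with a cortical covariate (6.25%), 6 without the cortical libraries (5.44%), 0 with the Y-linked covariate (0.717%) and 7 higher (9.16%) and 1 lower (8.66%) without both libraries, where the median was 0.16. For KI-96 against E1 the 3 lower members became 6 with DESeq2 (6.99% of all genes), 1 with limma-voom (6.53%), 1 with only the 2 groups (4.21%), 8 with the cortical covariate (5.53%) and 23 without the cortical libraries (4.82%); the median, -0.67, was -0.35 with limma-voom, -1.20 without the cortical libraries and -0.10 without both, with 1 member higher (8.85%). The causes were not tested.

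Ranges when 1 library was left out are given next. At an unadjusted p under 0.05, 2.29% to 5.94% of all genes were then higher in E1 against WT, 4.31% to 9.22% higher in KI-96 against WT and 4.85% to 10.2% lower in KI-96 against E1. In E1 against WT the count at an unadjusted p ran from 4 (without E1 replicate 1) to 33 (without E1 replicate 4), and the median from 0.33 to 1.17. In KI-96 against WT the count ran from 0 to 14 and the median from 0.16 to 0.56. The count was 0 without WT replicate 6, WT replicate 7 or KI-96 replicate 4, 1 without WT replicate 2, 4 or 5 or KI-96 replicate 3, 5 without KI-96 replicate 2, and 7 without KI-96 replicate 1; with E1 libraries left out it was 14 for replicate 1, 8 for replicate 3 and 7 for replicate 4. In KI-96 against E1 the count of lower members ran from 1 to 16 and of higher ones from 0 to 1, and the median from -0.95 to 0.11. With E1 libraries left out, the lower members numbered 1 for replicate 1, 6 for replicate 2, 14 for replicate 3 and 16 for replicate 4, and with KI-96 libraries left out, 1 for replicate 1 and 13 for replicate 4. The log2 fold change of Rsad2 in KI-96 against E1 ran from -1.43 to 0.13, the sign turning without E1 replicate 1.

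For samples that share a replicate number, the correlation of their deviations lay between -0.10 and 0.19 over 12 pairs (median 0.02). Over the 60 pairs with other numbers it lay between -0.36 and 0.54 (median -0.01). The measure showed no pairing by number, but other variation is wide in it and a weak pairing would not be seen. With the replicate number as a block, 5 members were higher in E1 against WT at an unadjusted p under 0.05 (2.07% of all genes), 0 in KI-96 against WT (2.11%), and 1 lower in KI-96 against E1 (5.06%), with a median of -0.43 there. The design with 4 libraries in E1 and KI-96 and 1 library far from the rest limits what any of these fits can resolve.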
